A study of Mus musculus with 9 samples.

Results

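The genes described here encode the machinery by which the endoplasmic reticulum (ER) folds, modifies and discards secretory proteins, and the sensors that report on its load. They were taken from a list of 55 gene symbols with these functions, chosen with earlier results of these data known. Of these 55 genes, 54 had a probe set of their own on the array and all 54 passed the filter for testing, out of 18193 genes with a probe set and 11006 genes tested in the series. The remaining gene, Sec61g, which encodes a subunit of the protein-conducting channel, had no probe set paired with it alone and has no value here. Total RNA from 9 samples of C57BL/6 mouse stomach cells was hybridised to 1 Affymetrix mouse genome array each. The Parietal group held 3 samples of gastric parietal cells. The Isthmus group held 3 samples of Mist1+Tomato+ corpus cells collected after ablation of Lgr5+ cells, and the Chief group held 3 samples of Mist1+Tomato+ corpus cells with no ablation in their labels, so that those 2 groups share the reporter and the gate. Mist1, the product of Bhlha15, is a factor that builds the secretory apparatus of zymogenic cells, Tomato is a red fluorescent reporter protein, and Lgr5 marks a subset of the chief cells at the gland base. The driver alleles, the means of ablation, the ages of the mice and whether the samples of a group came from separate mice are left unsaid by the labels. A p-value here is set against the variation among the 3 arrays of a group. Part of that variation, and in the Isthmus group all of it, may be technical.

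Secretory proteins enter the ER through the Sec61 channel, guided by the signal recognition particle (SRP) and its receptor. There the signal peptide is cleaved, N-glycans are attached by the oligosaccharyltransferase, chaperones of the BiP family hold the chain while it folds, and protein disulfide isomerases form and reshuffle its disulfide bonds. Chains that fail to fold are drawn back to the cytosol and destroyed, a process called ER-associated degradation. When unfolded protein accumulates, the membrane sensors IRE1, ATF6 and PERK start the unfolded protein response, in which the factors XBP1 and ATF6 raise the transcription of many of these same genes. Gastric chief cells carry dense stacks of rough ER that make pepsinogen, whereas parietal cells are filled with mitochondria and acid-secreting membrane.

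The best known DNA element of this response is the ER stress response element (ERSE), a CCAAT box followed after a gap of any bases by CCACG. It was looked up as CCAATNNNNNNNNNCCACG on both strands of the RefSeq promoter windows of the assembly GRCm38.p6, which run from 250 bases before to 50 bases after an annotated start site. A window was at hand for 46 of the 55 genes, and 10 of the 46 held a match (21.7%), against 37 of all 27025 genes with a window (0.137%). The 10 genes were Hspa5, Hsp90b1, Calr, Canx, Dnajc3, Creld2, Pdia6, Ero1b, Derl3 and Syvn1. For 6 of them that passed the test in at least 1 comparison below, the stretch from just before the element to the base before the start site is printed 5′ to 3′ on the strand of the gene, with the fixed bases of the element in capitals. On the opposite strand the element reads CGTGG, the gap and then ATTGG.
Hspa5 (chr2:34772005-34772089, plus strand): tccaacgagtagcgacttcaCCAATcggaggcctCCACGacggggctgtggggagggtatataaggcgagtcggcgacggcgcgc
Hsp90b1 (chr10:86705445-86705676, minus strand): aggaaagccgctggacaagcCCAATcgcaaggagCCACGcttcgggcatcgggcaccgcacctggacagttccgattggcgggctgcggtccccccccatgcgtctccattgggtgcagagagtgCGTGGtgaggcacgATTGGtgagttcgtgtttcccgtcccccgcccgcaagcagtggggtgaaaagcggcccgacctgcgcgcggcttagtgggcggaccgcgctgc
Pdia6 (chr12:17266471-17266588, plus strand): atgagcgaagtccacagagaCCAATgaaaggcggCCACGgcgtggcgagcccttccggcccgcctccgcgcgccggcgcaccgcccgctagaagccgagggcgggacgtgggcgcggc
Creld2 (chr15:88819500-88819645, plus strand): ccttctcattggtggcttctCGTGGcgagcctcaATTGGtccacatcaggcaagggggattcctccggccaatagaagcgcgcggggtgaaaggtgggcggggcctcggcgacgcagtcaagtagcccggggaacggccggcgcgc
Derl3 (chr10:75893222-75893397, plus strand): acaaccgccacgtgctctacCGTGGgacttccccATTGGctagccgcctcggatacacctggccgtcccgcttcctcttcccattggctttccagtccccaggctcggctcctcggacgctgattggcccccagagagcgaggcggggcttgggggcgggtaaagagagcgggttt
Ero1b (chr13:12565662-12565882, plus strand): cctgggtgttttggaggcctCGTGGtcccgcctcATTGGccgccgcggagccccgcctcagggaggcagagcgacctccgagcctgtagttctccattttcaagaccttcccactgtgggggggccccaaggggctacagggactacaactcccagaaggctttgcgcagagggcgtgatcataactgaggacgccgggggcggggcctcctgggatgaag

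Hspa5 and Pdia6 held the element in the direction of transcription, and Creld2, Derl3 and Ero1b held it on the opposite strand. Hsp90b1 was the member with a match in each direction. The other 4 genes with a match are shown by the element alone, since none of them passed the test in any comparison.
Calr (chr8:84847075-84847093, minus strand): CGTGGtcgaccctcATTGG
Canx (chr11:50325800-50325818, minus strand): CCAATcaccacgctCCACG
Dnajc3 (chr14:118937827-118937845, plus strand): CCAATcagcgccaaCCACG
Syvn1 (chr19:6046532-6046550, plus strand): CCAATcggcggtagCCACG

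The related element ERSE-II (ATTGG, 1 base of any kind and CCACG) was present in the windows of Dnajb11 and Herpud1, against 12 genes of all those with a window (0.0444%). The unfolded protein response element (UPRE, TGACGTGG) was present in those of Txndc5 and Txndc11, against 193 genes in all (0.714%). No ER gene held more than 1 of these 3 kinds of element, and none of the 3 overlapped another. The E-box CATATG, a site that Mist1 is known to bind in other secretory cells, was present in the window of 1 ER gene, Srp14, against 4.48% of all genes with a window. The 14 genes with one of the 3 stress elements were 7 of chaperones, 4 of disulfide chemistry and 3 of ER-associated degradation, and no listed gene of translocation, signal peptidase, oligosaccharyltransferase or the sensors held one in its window. In all, 9 genes, among them Hyou1, Manf and Sec11c, had no window to search. A match describes these letters and was not tested as a binding site.

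**Figure D1:**
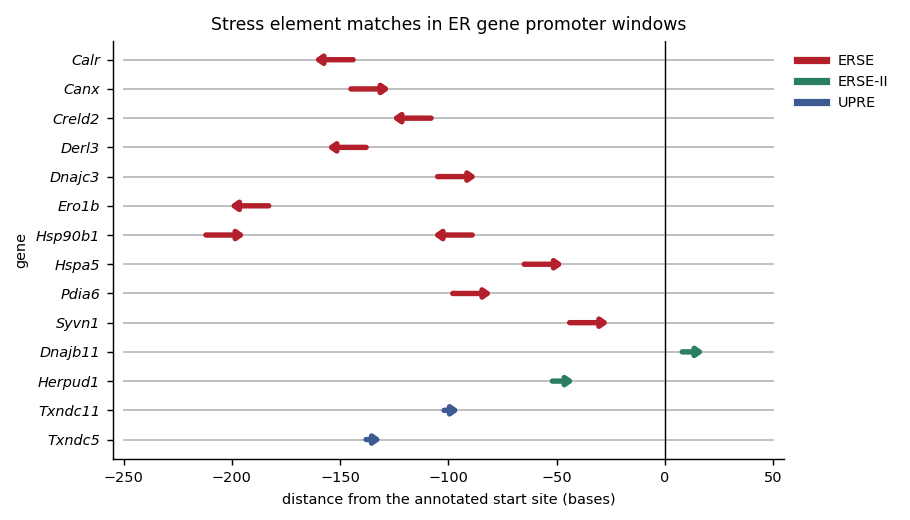
Positions of matches to 3 stress elements in the promoter windows of 14 ER genes, as distance in bases from the annotated start site. Each arrow points along the strand that carries the element, grey lines are the windows searched, and all matches but that of Dnajb11 lie in the 250 bases before the start.

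Before the comparisons, 2 arrays were seen to stand apart. Chief 3 carried connective-tissue signal, with 12.48 for Col1a1 on the log2 scale of the deposited signals against at most 7.26 on the other 8 arrays, and summed fibroblast, leukocyte and red blood cell markers above those of every other array. Chief 3 and Parietal 1 had Xist at 11.72 and 13.13, against at most 5.93 on the other 7 arrays. The Y-linked gene Eif2s3y stood at 10.63 on Chief 3, at 2.84 on Parietal 1, and at 11.32 and 11.59 on Parietal 2 and Parietal 3. Parietal 1 thus had high Xist with a dim Y-linked gene, and Parietal 2 and Parietal 3 the reverse. The Parietal samples were therefore not all from the same mouse. Chief 3 had both genes high. Counts without these 2 arrays are given beside each comparison. The labels were borne out in part by the marker genes. The acid pump gene Atp4a averaged highest in the Parietal group and the pepsinogen gene Pgc in the Chief group. Bhlha15 stood at 5.03, 1.34 and 7.36 on the Isthmus arrays, against 10.75, 10.05 and 9.20 on the Chief arrays, although both groups were gated on Mist1+Tomato+ cells. Samples of all 3 groups carried markers of other cell types. All 4 surface pit markers were above the array median on every array of each group, Pgc stood at 12.92 or higher on every Parietal array, and 5 of 6 enteroendocrine and 3 of 3 dividing-cell markers were above the array median on every Isthmus and every Chief array. The parietal gene Atp4a stood at 12.09 or higher on every Isthmus and every Chief array. The remaining enteroendocrine marker, the gastrin gene Gast, varied widely within groups. It had 1.62, 6.76 and 1.48 on the Parietal arrays, 11.38, 3.66 and 14.07 on the Isthmus arrays and 14.48, 3.65 and 13.84 on the Chief arrays. The source of this signal in samples labelled as corpus cells was not tested. In such bulk samples fewer cells of a type and less RNA per cell cannot be told apart.

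Most ER genes had their highest signal in the Chief group. The Chief mean was the highest of the 3 group means for 41 of the 54 genes, against 29.5% of all genes tested. The lowest mean was that of the Isthmus group for 32 of the 54 and that of the Parietal group for 21, against 29.6% and 43.0% of all genes tested. For each array, the median over the 54 genes of the deviation from a gene's own mean was -0.01, -0.22 and -0.21 on the log2 scale for Parietal 1 to 3, -0.26, -0.16 and -0.13 for Isthmus 1 to 3, and 0.71, 0.19 and 0.33 for Chief 1 to 3. All 3 Chief arrays were therefore above all 6 others in this median, and Chief 1 was the highest Chief array for 40 of the 54 genes, against 34.8% of all genes. Over all genes tested the same median lay between -0.03 and 0.09 on each array. Results without Chief 1 are given in both comparisons with the Chief group.

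**Figure D2:**
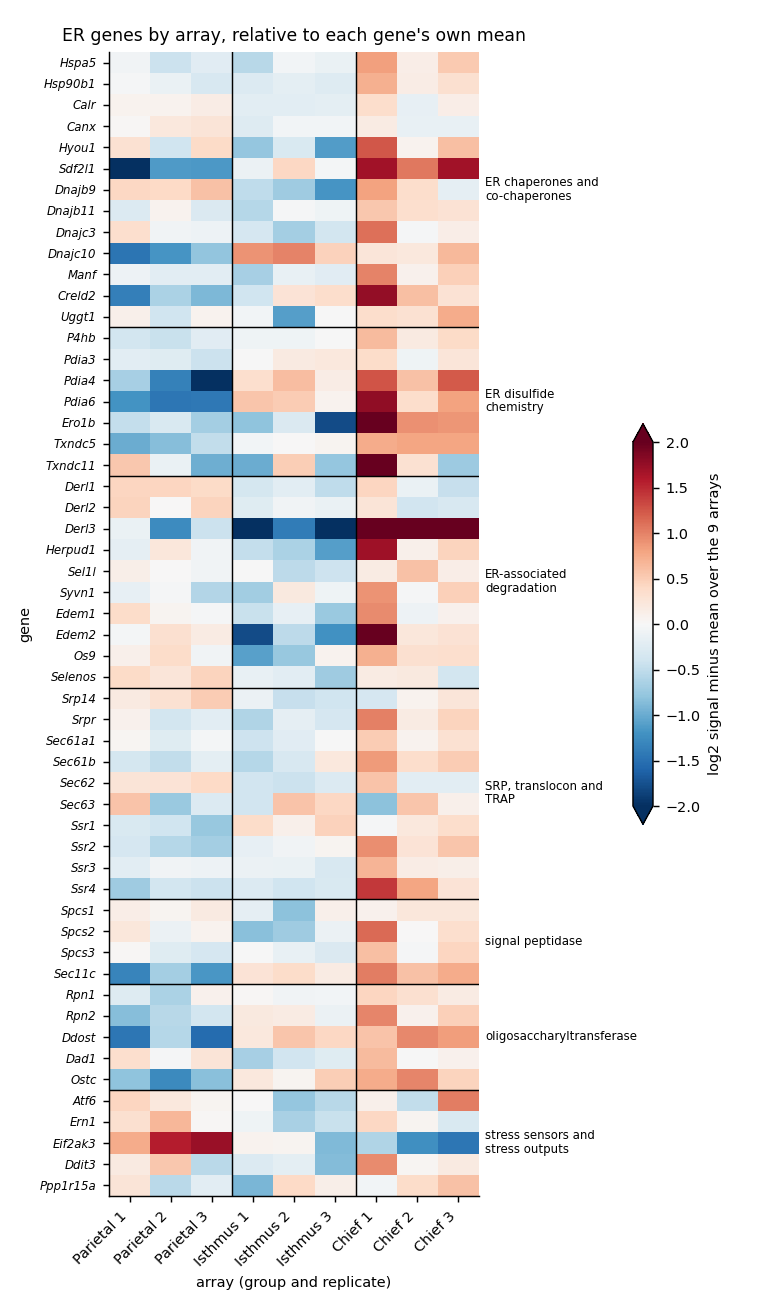
Log2 signal of 54 ER genes on each of the 9 arrays, as the deviation from the gene's own mean over the 9 arrays, with genes grouped by role. The Chief columns are mostly red (above the mean), most deeply on Chief 1, and the colour scale ends at 2 log2 units in each direction.

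The first comparison asks how Mist1+Tomato+ cells collected after loss of Lgr5+ cells differ from those of the intact corpus. Of the 54 ER genes, 50 were lower in the Isthmus than in the Chief group by their means, against 48% of all genes tested, and the median difference was -0.62 on the log2 scale, against 0.03 over all genes. By limma with Benjamini-Hochberg adjustment over 11006 genes and a threshold of 0.05, 6 ER genes were called lower in the Isthmus group and 0 higher. Over all genes tested, 1.26% were called lower and 0.391% higher. At an unadjusted p under 0.05, 32 ER genes were lower and 1 was higher, 33 in all, against 17.4% of all genes in either direction. The 6 were the chaperone genes Hsp90b1 and Hyou1, the co-chaperone gene Dnajb9, the oxidase gene Ero1b, the degradation gene Derl3 and the translocon-associated gene Ssr4. The 3 Isthmus values lay below all 3 Chief values for 32 of the 54 genes, against 10.5% of all genes, and above them for 0, against 10.6%. The count of called genes rested on single arrays. It was 0 without Chief 1, 10 without Chief 2, 4 without Chief 3, and 1, 2 and 3 without Isthmus 1, 2 or 3. Leaving out a Parietal array, which enters the shared estimate of spread, gave 2, 3 and 2. It was 3 without Chief 3 and Parietal 1 together, and the median difference without Chief 1 was -0.48. Of the 4 chief cell markers, 3 were called lower in the Isthmus group (Pgc, Cblif and Gper1), with a median difference of -4.155 over the 4. Markers of other cells were lower in the Isthmus group too: 3 of 4 surface pit markers were called lower, and all 6 enteroendocrine markers had a lower mean, 1 of them called. The part of all these cell types in the ER gene differences was not tested.

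The second comparison sets the Parietal against the Chief group, both of which carried markers of other cell types. Of the 54 ER genes, 25 were called lower in the Parietal than in the Chief group and 1 higher, where 13.5% of all genes tested were called lower and 10.7% higher. By their means 44 of the 54 were lower, against 54% of all genes, with a median difference of -0.55 against -0.10 over all genes. The groups did not overlap for 29 ER genes that were lower (21.2% of all genes) and for 2 that were higher (18.7%). The deposited scaling bears on these counts, because centring each array on its median adds 0.15 to every difference here. With centred arrays 17 ER genes were called lower and 3 higher, and the share of higher calls among all genes called was 54.6%, against 44.0% as deposited. Without Chief 3 and Parietal 1 the count of ER genes called was 19, and leaving out single arrays gave counts between 19 and 27. Without Chief 1, 19 ER genes were called lower and 4 higher, and the median difference was -0.39. In the same comparison 4 of 4 surface pit, 5 of 6 enteroendocrine and 2 of 2 tested mucous neck markers were called lower in the Parietal group, with a median difference of -7.17 over the enteroendocrine list, and their part in the ER gene differences was not tested.

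The third comparison sets the Parietal against the Isthmus group. Here 9 ER genes were called lower in the Parietal group and 7 higher, with 15.4% of all genes tested called lower and 12.2% higher. The median difference was 0.19, against -0.09 over all genes, and 21 of the 54 were lower by their means, against 53.3% of all genes. The groups did not overlap for 17 ER genes that were higher (20.3% of all genes) and for 14 that were lower (24%). Centring adds 0.21 to each difference, which gave 14 ER genes called higher and 8 lower, with 57.0% of all calls higher against 44.2% as deposited. Quantile normalization gave 7 higher and 12 lower. Without the intensity trend 2 were called higher and 9 lower, and Derl1, Selenos, Srp14, Sec62 and Dad1 were no longer called. Without Parietal 3 the counts were 3 higher and 10 lower. Without Chief 3 and Parietal 1 the count called was 12, against 16 with all arrays. Among markers, 3 of 4 surface pit, 5 of 6 enteroendocrine and 2 of 2 tested mucous neck genes were called lower in the Parietal group. So were 2 of 3 tested dividing-cell and 2 of 4 chief cell markers, while 4 of 5 parietal markers were called higher. The part of these cell types in the ER gene differences was not tested. The 3 comparisons share samples, and a gene's values in them are therefore not independent. Of the 54 genes, 21 were called in no comparison, and the same share over all genes was not computed.

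**Figure D3:**
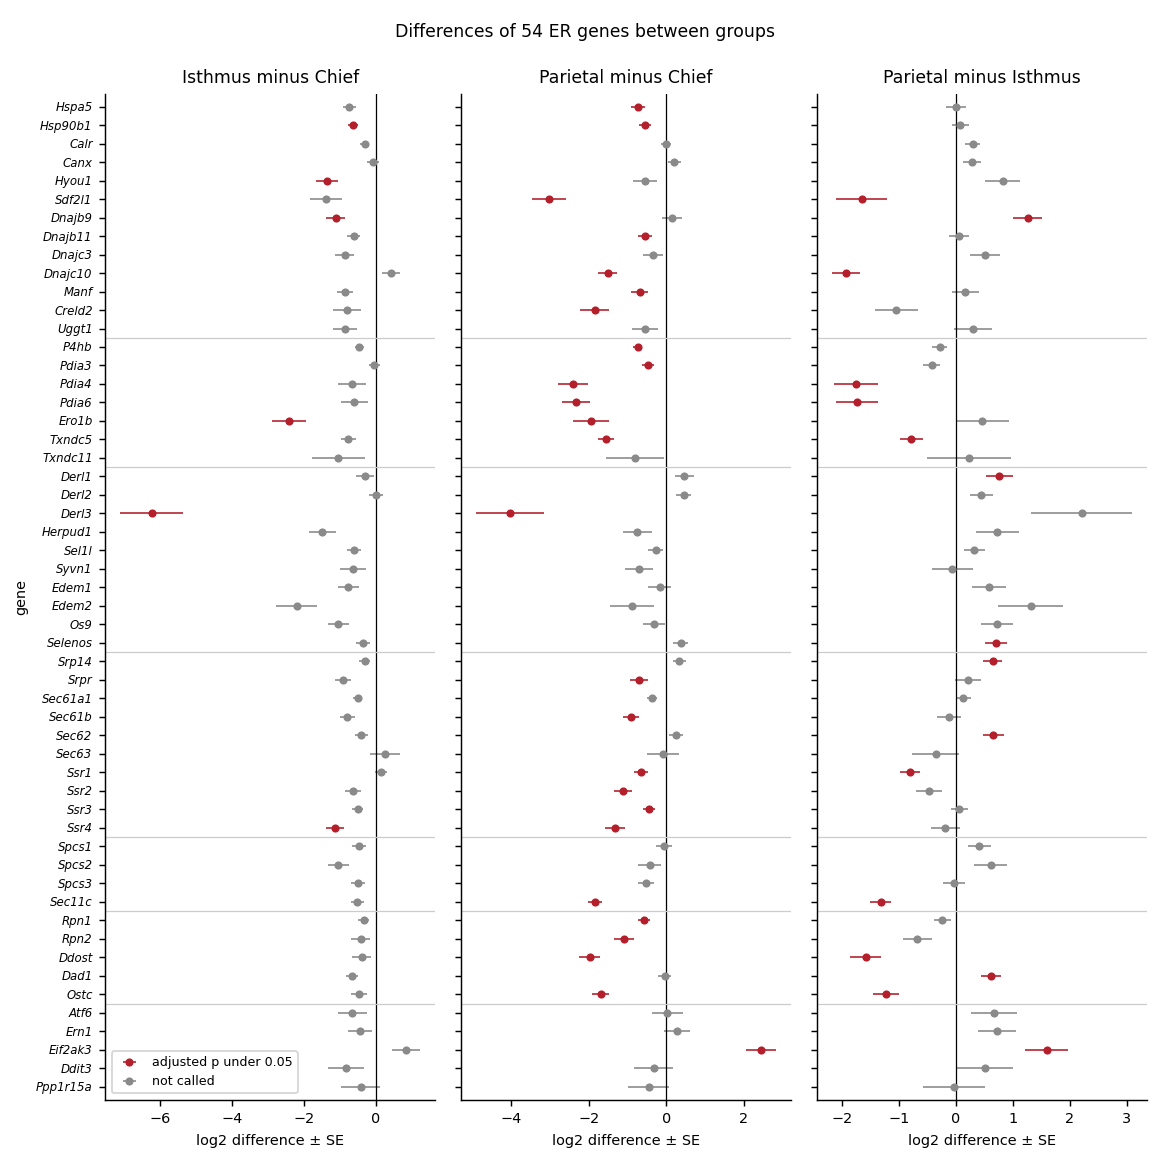
Log2 difference with its standard error for 54 ER genes in 3 comparisons, Isthmus minus Chief, Parietal minus Chief and Parietal minus Isthmus, with red points called at an adjusted p under 0.05 and grey points not called. The red points lie left of 0 in the first panel (6 of 6), mostly left in the second (25 of 26), and on both sides in the third (9 left, 7 right).

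The 13 genes of chaperones and their helpers held 3 of the 6 calls between Isthmus and Chief. Hyou1, a large relative of Hsp70 that resets BiP by nucleotide exchange, had log2 signals of 11.19, 11.66 and 10.84 on the Isthmus arrays, against 13.20, 12.03 and 12.57 on the Chief arrays. It fell 2.58-fold (log2 difference -1.37, SE 0.31, limma adjusted p = 0.0454), and the 2 groups did not overlap. Dnajb9, encoding a J-domain partner of BiP that also restrains IRE1, had 11.29, 11.08 and 10.62 on the Isthmus arrays, against 12.60, 12.15 and 11.61 on the Chief arrays. It fell 2.18-fold (-1.12, SE 0.25, limma adjusted p = 0.0454), again with no overlap. Hsp90b1, encoding the ER form of Hsp90, had 12.79, 12.87 and 12.80 on the Isthmus arrays, against 13.77, 13.21 and 13.38 on the Chief arrays. It fell 1.55-fold with a limma adjusted p of 0.049988, at the edge of the threshold. Hspa5, which encodes BiP itself, had 12.65, 13.16 and 13.08 on the Isthmus arrays, against 14.03, 13.35 and 13.73 on the Chief arrays. Its groups did not overlap, but its limma adjusted p was 0.0591 for a difference of -0.74, and it was not called. Manf, a BiP-bound secreted factor, missed the threshold in the same way (-0.86, limma adjusted p = 0.0827).

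Against Chief, 7 of the 13 were called lower in the Parietal group and 0 higher, beside 13.5% and 10.7% of all genes tested. Sdf2l1, encoding a partner of BiP co-chaperones, had 6.74, 7.99 and 7.97 on the Parietal arrays, 9.01, 9.54 and 9.09 on the Isthmus arrays and 10.80, 10.18 and 10.81 on the Chief arrays. The signals of the 3 groups did not overlap, although the Isthmus minus Chief difference of -1.38 was not called (limma adjusted p = 0.141). Sdf2l1 was 8.17-fold lower in the Parietal than in the Chief group (-3.03, SE 0.45, limma adjusted p = 0.000433) and 3.13-fold lower than in the Isthmus group (limma adjusted p = 0.0156). Dnajc10, encoding a reductase that unlinks disulfides ahead of degradation, had 9.90, 10.17 and 10.56 on the Parietal arrays, 12.25, 12.34 and 11.82 on the Isthmus arrays and 11.59, 11.56 and 12.00 on the Chief arrays. It was the one chaperone gene whose Isthmus mean exceeded its Chief mean, a difference of 0.42 that was not called (limma adjusted p = 0.414). It was 2.84-fold lower in the Parietal than in the Chief group and 3.80-fold lower than in the Isthmus group (limma adjusted p = 0.000784 and 0.000122). Creld2, encoding a secreted stress-response protein, was 3.60-fold lower in the Parietal than in the Chief group (limma adjusted p = 0.00363). Hspa5, Hsp90b1, Dnajb11 and Manf were also lower there, by 1.46-fold to 1.67-fold.

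Dnajb9 was the one chaperone gene called higher in the Parietal than in the Isthmus group, by 2.40-fold (limma adjusted p = 0.0027). Its Parietal signals of 12.21, 12.19 and 12.38 lay within the range of the Chief signals. Calr and Canx, encoding the lectin chaperones calreticulin and calnexin that hold glycoproteins, were called in no comparison, although both have the ERSE. Their log2 signals lay between 13.09 and 13.65 for Calr and between 11.80 and 12.31 for Canx over all 9 arrays, and Uggt1, which encodes the enzyme that returns glycoproteins to those lectins, was not called either.

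The 7 genes of disulfide chemistry had 6 of 7 called lower in the Parietal than in the Chief group, beside 13.5% of all genes tested. Their median difference was -1.55. Pdia6, encoding a disulfide isomerase that binds BiP, had 8.98, 8.74 and 8.76 on the Parietal arrays, 10.74, 10.69 and 10.25 on the Isthmus arrays and 11.95, 10.54 and 10.99 on the Chief arrays. The Parietal arrays were below both other groups, while the Isthmus and Chief arrays overlapped. Pdia6 was 5.04-fold lower in the Parietal than in the Chief group and 3.32-fold lower than in the Isthmus group (limma adjusted p = 0.000642 and 0.00368). Pdia4, encoding another isomerase, had 9.41, 8.72 and 7.95 on the Parietal arrays, 10.41, 10.69 and 10.23 on the Isthmus arrays and 11.33, 10.67 and 11.30 on the Chief arrays. It was 5.30-fold lower in the Parietal than in the Chief group and 3.36-fold lower than in the Isthmus group (limma adjusted p = 0.000756 and 0.00498). Txndc5, a thioredoxin-domain isomerase gene, was 2.93-fold and 1.72-fold lower in the same comparisons (limma adjusted p = 0.00017 and 0.012). P4hb, the classical disulfide isomerase gene, and Pdia3, its partner for glycoproteins, were 1.67-fold and 1.38-fold lower in the Parietal than in the Chief group, and a second, dimmer probe set of Pdia3 ran the other way.

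Ero1b was the one disulfide gene called lower in both the Isthmus and the Parietal group against Chief, although the Chief arrays also lay above all others for Txndc5 and P4hb. Ero1b encodes an oxidase that recharges the isomerases and is abundant in pancreatic secretory cells. It had 10.01, 10.18 and 9.81 on the Parietal arrays, 9.69, 10.20 and 8.70 on the Isthmus arrays and 13.06, 11.40 and 11.37 on the Chief arrays. It fell 5.33-fold in the Isthmus against the Chief group (-2.41, SE 0.47, limma adjusted p = 0.0286) and was 3.85-fold lower in the Parietal than in the Chief group (limma adjusted p = 0.0096). The Parietal and Isthmus arrays overlapped and were not called apart (limma adjusted p = 0.503), and both of its other probe sets were also lower in the Isthmus and Parietal groups than in the Chief group. The Chief signals themselves spanned 1.69 log2 units, with Chief 1 the highest.

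The 10 genes of ER-associated degradation held the largest difference of the 54 genes, that of Derl3. Derl3, encoding a derlin of the membrane channel through which misfolded proteins leave, had 6.12, 4.99 and 5.81 on the Parietal arrays, 2.97, 4.85 and 2.47 on the Isthmus arrays and 10.57, 9.33 and 9.10 on the Chief arrays. All 3 Isthmus signals lay below their array medians, which served here as a stand-in for background, so the difference is a bound. Derl3 was at least 11.4-fold lower in the Isthmus than in the Chief group. Its limma adjusted p of 0.00608 was computed on the deposited signals and not on this bound. Derl3 was above the array median on 3 Chief, 1 Parietal and 0 Isthmus arrays. It therefore passed the filter only through the Chief group, where it is high. Without Chief 1 the limma adjusted p was 0.061 and the call was lost. It was also called lower in the Parietal than in the Chief group (limma adjusted p = 0.00532), with 2 of 3 Parietal signals at or below their array medians, so no size is given for that difference. Plasma cells are another cell type known for high Derl3. Of 9 plasma-cell markers, 8 had a probe set and 3 passed the filter. The summed linear signal of the 8 was 3485 to 4629 on the Parietal arrays, 5252 to 5642 on the Isthmus arrays and 5889 to 12909 on the Chief arrays. On the Parietal and Isthmus arrays most of this sum came from 1 marker, Sdc1, which stood at 11.45 to 12.61 over all 9 arrays. The sum is therefore no measure of plasma cells there. The defining marker Jchain had 3.30, 4.02 and 3.00 on the Parietal arrays, 0.00, 0.00 and 0.44 on the Isthmus arrays and 10.20, 8.87 and 0.38 on the Chief arrays. Another, Igha, had 8.48, 9.50 and 9.11 on the Parietal arrays, 8.74, 8.77 and 8.92 on the Isthmus arrays and 12.74, 9.17 and 9.48 on the Chief arrays. The part of plasma cells in the Derl3 difference was not tested.

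The other derlin genes followed another order. Derl1 had 11.75, 11.75 and 11.71 on the Parietal arrays, against 10.97, 11.12 and 10.82 on the Isthmus arrays, and was 1.70-fold higher in the Parietal group (limma adjusted p = 0.0308). Its Chief signals of 11.75, 11.19 and 10.87 spanned both. Selenos, encoding a selenoprotein of the same channel, was 1.64-fold higher in the Parietal than in the Isthmus group (limma adjusted p = 0.0157). Derl2 was called in no comparison. For 7 of the 10 degradation genes all Parietal signals lay above all Isthmus signals, and for 0 below, beside 20.3% and 24% of all genes. Herpud1, a stress-induced scaffold of the ligase, had 10.23, 10.07 and 9.60 on the Isthmus arrays, against 12.40, 10.81 and 11.16 on the Chief arrays. The groups did not overlap, yet the difference of -1.49 had a limma adjusted p of 0.0657. The ligase gene Syvn1, its partner Sel1l and the mannose-trimming or glycan-reading genes Edem1, Edem2 and Os9 were called in no comparison. Edem2 differed by -2.20 between Isthmus and Chief with a limma adjusted p of 0.0732, and its Chief 1 signal of 12.26 stood well above 9.91 and 9.97 on Chief 2 and Chief 3.

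Among the 10 tested genes of targeting and translocation, Ssr4 was called between Isthmus and Chief. It encodes a subunit of the translocon-associated protein complex (TRAP), which sits beside the Sec61 channel. It had 11.19, 11.54 and 11.47 on the Parietal arrays, 11.63, 11.51 and 11.60 on the Isthmus arrays and 13.32, 12.69 and 12.17 on the Chief arrays. Ssr4 fell 2.21-fold in the Isthmus against the Chief group (limma adjusted p = 0.0428) and was 2.51-fold lower in the Parietal than in the Chief group (limma adjusted p = 0.00203). All 4 TRAP subunit genes were called lower in the Parietal than in the Chief group, Ssr1 by 1.58-fold, Ssr2 by 2.17-fold and Ssr3 by 1.36-fold. Ssr1, Ssr3 and Ssr4 lost that call with the mean over probe sets. Of the 4 only Ssr2 kept it under each of 20 alternatives. Ssr2 has 1 probe set, so the mean over probe sets could not alter its signals. Sec61b, a channel subunit, and Srpr, the SRP receptor, were also called lower in the Parietal than in the Chief group, by 1.88-fold and 1.63-fold. A second probe set of Srpr was higher in the Parietal group, and the mean over its probe sets turned the difference to 0.082 (limma adjusted p = 0.843). Sec61a1, the channel itself, was not called in any comparison (limma adjusted p = 0.0761 for Isthmus and 0.057 for Parietal against Chief). Srp14, a subunit of the SRP, and Sec62, a helper of post-translational entry, were 1.57-fold and 1.58-fold higher in the Parietal than in the Isthmus group (limma adjusted p = 0.00986 and 0.0177), whereas Ssr1 was 1.74-fold lower (limma adjusted p = 0.00453).

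Signal peptidase cleaves the signal peptide once the chain has entered, and all 4 of its genes had lower means in the Isthmus and in the Parietal group than in the Chief group. Between Isthmus and Chief the differences ran from -1.05 to -0.48, and 0 of the 4 were called by limma although 4 had an unadjusted p under 0.05. Sec11c, encoding a catalytic subunit, had 11.14, 11.78 and 11.30 on the Parietal arrays, 12.73, 12.82 and 12.62 on the Isthmus arrays and 13.49, 13.05 and 13.20 on the Chief arrays. It was 3.58-fold lower in the Parietal than in the Chief group (-1.84, SE 0.18, limma adjusted p = 2.47e-05), the lowest adjusted p of the 54 genes in that comparison, and 2.49-fold lower than in the Isthmus group (limma adjusted p = 0.000224). The 3 groups did not overlap, and the difference of -0.52 between Isthmus and Chief was not called (limma adjusted p = 0.171). The other subunit genes Spcs1, Spcs2 and Spcs3 were called in no comparison.

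The oligosaccharyltransferase, which transfers the N-glycan, had 4 of its 5 listed genes called lower in the Parietal than in the Chief group. Of all genes tested, 13.5% were called lower there. Ddost, a core subunit gene, had 9.79, 10.67 and 9.70 on the Parietal arrays, 11.45, 11.79 and 11.65 on the Isthmus arrays and 11.81, 12.20 and 12.07 on the Chief arrays. It was 3.93-fold lower in the Parietal than in the Chief group and 2.98-fold lower than in the Isthmus group (limma adjusted p = 0.000256 and 0.000981). Ostc, encoding a subunit of the translocon-bound form of the enzyme, had 10.64, 10.16 and 10.60 on the Parietal arrays, 11.65, 11.49 and 11.93 on the Isthmus arrays and 12.18, 12.42 and 11.89 on the Chief arrays. It was 3.24-fold lower in the Parietal than in the Chief group and 2.33-fold lower than in the Isthmus group (limma adjusted p = 0.000215 and 0.00167). The ribophorin genes Rpn1 and Rpn2 were 1.48-fold and 2.14-fold lower in the Parietal than in the Chief group. Dad1, the small subunit named for its role against cell death, ran the other way against Isthmus, with 13.42, 13.07 and 13.35 on the Parietal arrays, against 12.42, 12.71 and 12.84 on the Isthmus arrays, and was 1.54-fold higher (limma adjusted p = 0.0184). Between Isthmus and Chief 0 of the 5 were called by limma, and 2 were lower at an unadjusted p under 0.05.

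**Figure D4:**
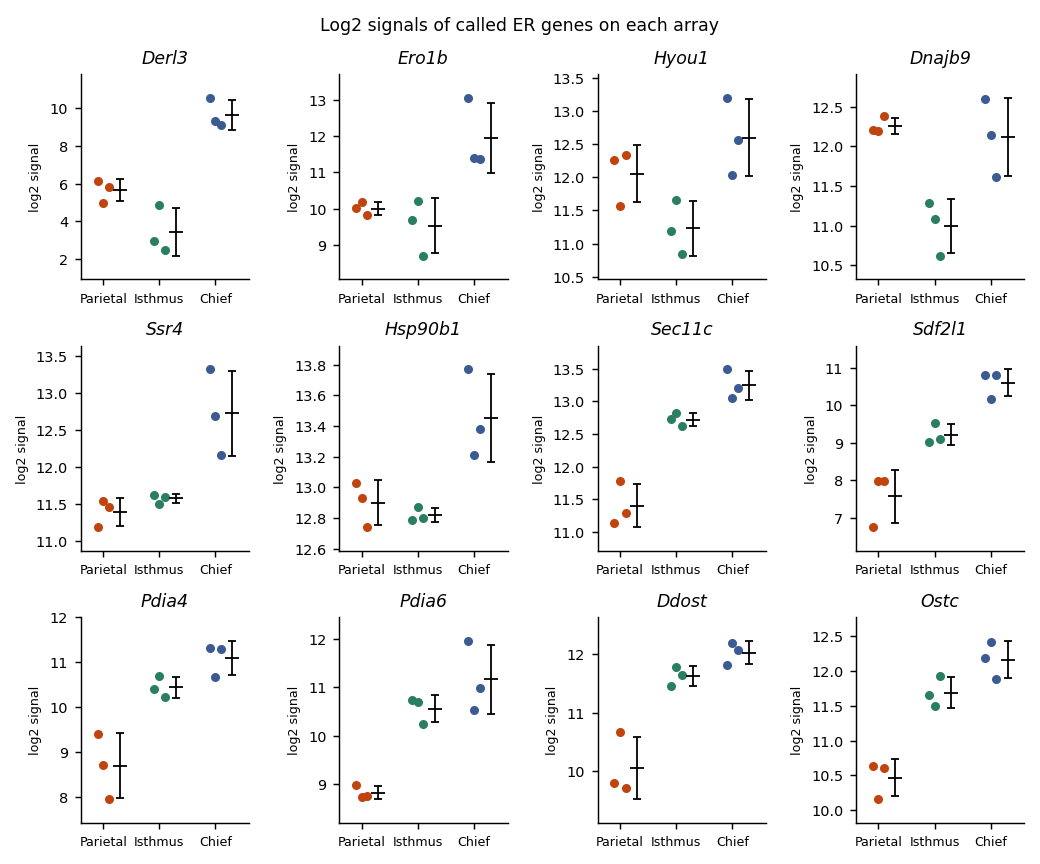
Log2 signals of 12 ER genes on each array by group, with the group mean and SD (n = 3) in black beside the points, and a separate vertical scale for each gene. Derl3, Ero1b and Ssr4 are highest on the Chief arrays, whereas Sec11c, Pdia4, Pdia6, Ddost and Ostc are lowest on the Parietal arrays.

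The 5 listed stress sensors and outputs gave 1 called gene. Eif2ak3 encodes PERK, the sensor kinase that slows translation under ER stress. It had 11.02, 11.85 and 12.00 on the Parietal arrays, 10.35, 10.33 and 9.40 on the Isthmus arrays and 9.68, 9.05 and 8.83 on the Chief arrays. The Parietal arrays were above all others, and Eif2ak3 was 5.41-fold higher in the Parietal than in the Chief group (2.44, SE 0.38, limma adjusted p = 0.000645) and 3.02-fold higher than in the Isthmus group (limma adjusted p = 0.00788). It was the one ER gene called higher in the Parietal than in the Chief group. Its difference between Isthmus and Chief was 0.84 and was not called (limma adjusted p = 0.283). Its other probe sets were also higher in the Parietal group than in each other group.

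The other 4 genes of this set were not called in any comparison. Ddit3, encoding the stress factor CHOP, had 8.57, 8.93 and 7.84 on the Parietal arrays, 8.11, 8.19 and 7.52 on the Isthmus arrays and 9.33, 8.43 and 8.56 on the Chief arrays, with all Isthmus signals below all Chief signals and the Parietal signals spread across both. Ppp1r15a, encoding GADD34, which restarts translation, lay between 7.17 and 8.66 on all 9 arrays. The sensor genes Atf6 and Ern1 lay between 9.25 and 11.05 and between 9.33 and 10.64. For these 4 genes the standard error of a difference was 0.34 to 0.54 log2 units, and a call needed a difference of several standard errors, as the uncalled -0.83 of Ddit3 between Isthmus and Chief shows. Atf4, the factor that PERK brings to translation, was not on the list of 55 and was likewise not called.

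**Figure D5:**
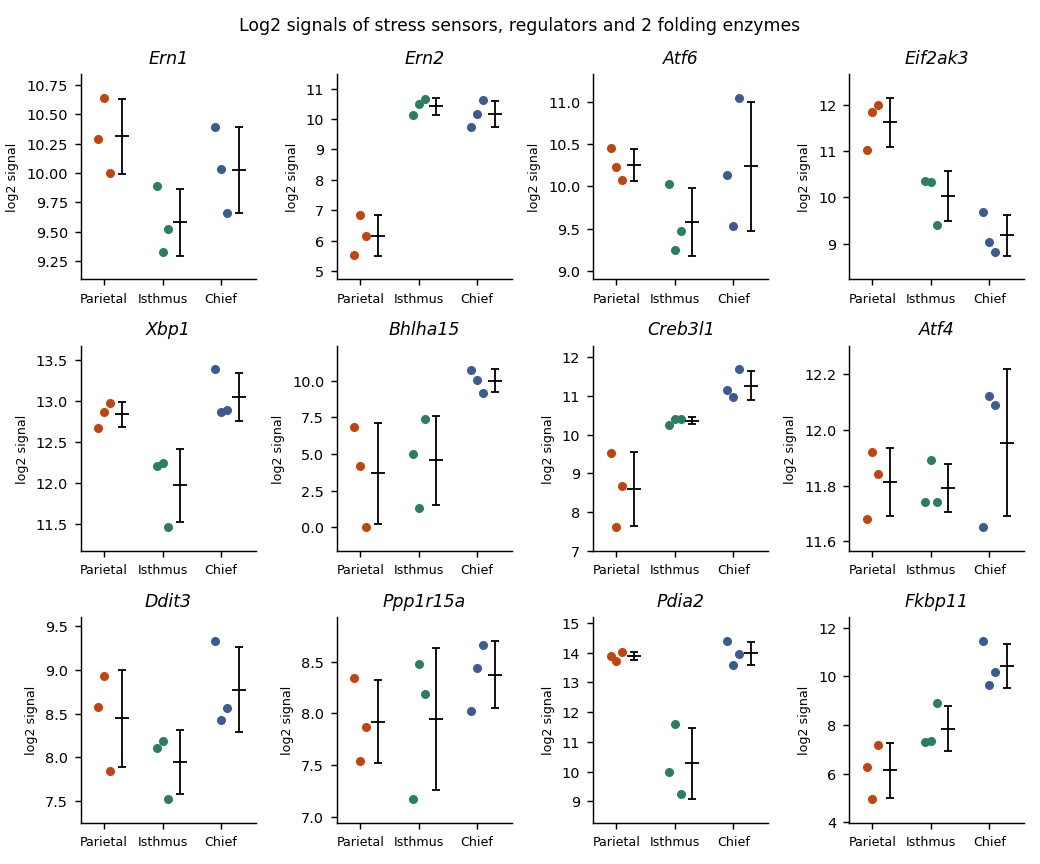
Log2 signals of 12 genes of stress sensing, its regulators and ER folding on each array by group, with the group mean and SD (n = 3) in black beside the points, and a separate vertical scale for each gene. Eif2ak3 is highest on the Parietal arrays, Ern2 and Creb3l1 are lowest there, and Xbp1 and Pdia2 are lowest on the Isthmus arrays.

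Further genes of the same pathways, outside the 55, were taken as lists from general knowledge. These lists too were chosen with earlier results of these data known, so their counts are not independent of the data. In the Isthmus against the Chief group, 1.26% of all genes tested were called lower and 0.391% higher. Of 14 tested regulators and targets of the unfolded protein response, Xbp1 was called lower in the Isthmus than in the Chief group and 0 were called higher. Xbp1 encodes the transcription factor spliced by IRE1 and had 12.67, 12.87 and 12.98 on the Parietal arrays, 12.21, 12.25 and 11.46 on the Isthmus arrays and 13.39, 12.87 and 12.89 on the Chief arrays. It fell 2.11-fold in the Isthmus against the Chief group (limma adjusted p = 0.0324) and was 1.82-fold higher in the Parietal than in the Isthmus group (limma adjusted p = 0.00948). Against Chief, 4 of the 14 were called lower in the Parietal group and 0 higher, beside 13.5% and 10.7% of all genes tested. They were Ern2, an IRE1 form of mucous epithelia, Creb3l1, a cleaved membrane factor of secretory cells, Bhlha15 and Atf3. Bhlha15 encodes Mist1, on which the Chief cells were gated, so the sort itself favoured this call. It was above the array median on 3 Chief, 1 Parietal and 1 Isthmus arrays and passed the filter only through the Chief group. Ern2 had 5.52, 6.84 and 6.16 on the Parietal arrays, 10.12, 10.49 and 10.66 on the Isthmus arrays and 9.74, 10.16 and 10.61 on the Chief arrays. It was 19.0-fold lower in the Parietal than in the Isthmus group (limma adjusted p = 4.18e-05) and also lower than in the Chief group (log2 difference -4.00, limma adjusted p = 6.69e-05), with 1 of the 3 Parietal signals below its array median.

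Of 24 tested further folding factors, 2 were called lower in the Isthmus than in the Chief group and 0 higher. The shares of all genes tested were 1.26% and 0.391%. Pdia2, encoding an isomerase first described in the pancreas, had 13.90, 13.73 and 14.01 on the Parietal arrays, 9.98, 11.60 and 9.26 on the Isthmus arrays and 14.39, 13.60 and 13.95 on the Chief arrays. It fell in the Isthmus against the Chief group by a log2 difference of -3.70 (SE 0.43, limma adjusted p = 0.00136), and this call was kept under each of the 20 alternatives. Its single probe set leaves its signals unchanged in the mean over probe sets. Pdia2 was 12.1-fold higher in the Parietal than in the Isthmus group (limma adjusted p = 7.33e-05), an order unlike that of Pdia4 and Pdia6. Against Chief, 7 of the 24 were called lower in the Parietal group and 4 higher, beside 13.5% and 10.7% of all genes tested. Among them was Fkbp11, a prolyl isomerase gene of secretory cells (19.7-fold lower, limma adjusted p = 0.000917, 1 of 3 Parietal signals below its array median). Another was Tmx2, a membrane thioredoxin gene (3.06-fold higher, limma adjusted p = 2.92e-05). Of 17 tested further degradation factors, 0 were called by limma in either comparison with Chief, and 2 had an unadjusted p under 0.05 in each. In those 2 comparisons the list medians were -0.06 for Isthmus and 0.04 for Parietal. Between Parietal and Isthmus, the signals did not overlap for 4 of the 17 that were higher in the Parietal group and for 3 that were lower. The shares over all genes were 20.3% and 24%, so the order seen in the 10 listed degradation genes did not extend to these 17. Of 15 further genes of entry, cleavage and glycosylation, 1 was called lower and 0 higher in the Isthmus than in the Chief group. In the Parietal against the Chief group 3 were called lower and 2 higher, near the 13.5% and 10.7% of all genes tested.

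Chaperones outside the ER were counted beside these. Of 25 tested genes of cytosolic and mitochondrial chaperones, 1 was called lower and 0 higher in the Isthmus than in the Chief group, with a median difference of -0.01, beside -0.62 for the 54 ER genes. In the Parietal against the Chief group 1 was called lower and 2 higher, where 13.5% and 10.7% of all genes tested were. The median there was 0.04, beside -0.55 for the ER genes. A list of 8 genes that respond to tissue dissociation, among them Fos and Egr1, moved along with the Parietal comparisons: 5 of 8 were called lower in the Parietal than in the Chief group, and its summed linear signal was 9682 to 15097 on the Parietal arrays, 22670 to 29720 on the Isthmus arrays and 26451 to 36451 on the Chief arrays. Its part in the ER gene differences was not tested.

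The differences of the ER genes with and without the ERSE were set side by side without a test. The 10 with the element had a median Isthmus minus Chief difference of -0.69, with 10 of 10 below 0 and 3 called lower. The 35 tested genes with a window and no such element had a median of -0.61, with 31 below 0 and 2 called lower. In the Parietal against the Chief group the medians were -0.72 with the element, with 6 called lower, and -0.47 without it, with 15 called lower and 1 higher. In the Parietal against the Isthmus group the medians were 0.18 with the element, with 1 called lower and 0 higher, and 0.24 without it, with 6 called lower and 6 higher. Derl3, Ero1b, Creld2 and Pdia6, whose promoter stretches are printed above, were among those called, while Calr, Canx, Dnajc3 and Syvn1 carry the same element and were not.

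How far the calls depend on the analysis differed between comparisons. Of the 26 ER genes called between Parietal and Chief, 12 kept their call under each of 20 alternatives, namely Sdf2l1, Dnajc10, Creld2, Pdia6, Ero1b, Txndc5, Derl3, Ssr2, Sec11c, Ddost, Ostc and Eif2ak3. Of the 16 called between Parietal and Isthmus, 6 did, namely Dnajb9, Dnajc10, Pdia4, Sec11c, Ddost and Eif2ak3. Of the 6 called between Isthmus and Chief, 0 did, and the nearest was Derl3 with 19 of 20. Among the genes named here, Sdf2l1, Creld2, Derl3, Ssr2, Ddost and Dnajb9 have 1 probe set each. The mean over probe sets therefore could not alter their signals. Where a called gene had other probe sets, these ran in the same direction for 7 of 7 probe sets between Isthmus and Chief, 21 of 23 between Parietal and Chief, and 20 of 21 between Parietal and Isthmus. The exceptions among those counted belonged to Pdia3, Srpr and Sec62. A dimmer probe set of Rpn1, left out by this rule, ran the other way between Parietal and Chief.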

How the data were processed

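The authors deposited one table of log2 signals for all arrays and probe sets, computed with MAS5, per the submitters' processing notes. Base 2 was inferred: read so, every array had a trimmed mean signal (2% off either tail) of 496 to 497. Array medians ran from 55.7 to 104 in linear signal, and 1.99% to 3.91% of an array's values were 0, read as a floor. The number of arrays limits the precision. No detection calls were used here, so the array median served as a stand-in for background.

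Gene names came from the platform annotation, checked against RefSeq (GRCm38.p6). Of 45037 probe sets, 34945 named 1 gene, 932 several and 9160 none, 34741 matched and 0 symbols changed. A gene took its probe set with the highest mean. A gene was tested if it exceeded the array median on at least 3 of 9 arrays. The deposited log2 values, with no pseudocount, were fitted with limma 3.58.1 under R 4.3.3 (lmFit, contrasts.fit, eBayes with an intensity trend) in 1 model of 3 group means with 6 residual degrees of freedom. Tests were two-sided, adjusted by Benjamini-Hochberg over 11006 genes, and genes with an adjusted p under 0.05 were called. Any of the 55 ER genes could be named. From each further list up to 4 called genes with the largest difference per comparison could be named, with Xbp1, Atf4, Bhlha15 and the cell type markers always allowed. An "at least" fold sets each dim array to its median. The fit was tested on simulated data. Groups and numbers came from the sample titles. The labels do not say that equal numbers mark a shared animal or day, so the numbers were not taken to pair the samples. Same-numbered Chief and Isthmus arrays had deviations correlated at 0.04 to 0.07, which had no part in that choice. Alternatives covered scaling, filter, pseudocount, probe set choice, model and each array left out, plus, added after seeing the data, Chief 3 and Parietal 1 together. The ER genes and all lists were chosen with earlier results of these data known. Tables were made with Python 3.11.15, pandas 2.3.3 and numpy 2.4.6, and figures with matplotlib 3.10.9. ER retrieval signals in proteins were planned and not analysed here.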

Additional observations from a re-analysis of the deposited data

How the results depend on the processing

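The count of ER genes called between Isthmus and Chief, 6 as reported, was 2 with the mean over probe sets, 2 with no filter, 1 with no intensity trend, 1 with only the 2 groups fitted, 3 with the replicate block, 3 without Chief 3 and Parietal 1, and 0 to 10 when single arrays were left out. The count of all genes called there, 182 as reported, was 118, 95, 43 and 91 under the first 4 of these settings, 316 with a pseudocount of 64, 50 without Chief 3 and Parietal 1, and 19 to 163 when single arrays were left out. Between Parietal and Chief, 15 ER genes were called with no intensity trend, against 26, and 1601 genes in all without Chief 3 and Parietal 1, against 2664. The median Parietal minus Isthmus difference of the ER genes, 0.19 as reported, was 0.41 with centred arrays, 0.087 with the mean over probe sets, 0.11 without Chief 3 and Parietal 1, and 0.081 to 0.21 when single arrays were left out. One called difference changed sign, that of Srpr between Parietal and Chief (0.082 with the mean over probe sets). With fewer arrays or more genes the test has less power by construction, and the cause of the other changes was not tested. Same-numbered arrays are not known to be paired. With the replicate block 25 ER genes were called between Parietal and Chief and 16 between Parietal and Isthmus. Each Chief array correlated best with the Isthmus array of its own number. Gast was dim on Chief 2 and Isthmus 2 (3.65 and 3.66) and bright on the other arrays of these groups (11.38 to 14.48). Both are hints from the data and not from the design.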
